A study of Mus musculus with 5 samples.

Results

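Runx1, Runx2, Runx3, Cbfb, Runx1t1, Cbfa2t2 and Cbfa2t3 are the 7 genes described here, of 21437 named genes in the table. They were taken by symbol, each as the row of the table that bears its name: 3 RUNX genes, the gene of their common partner CBFB, and 3 genes of the MTG family of corepressors, whose founding member is named for its fusion with RUNX1 in leukaemia. All 7 symbols were found, and each had 1 row. RNA was measured in 5 untreated mouse lines grown in DMEM with fetal bovine serum and harvested at subconfluency. NIH-3T3 is an embryonic fibroblast line of Swiss origin. The other 4 lines came from pituitary tumors of CB6F1/J mice that carried a transgene for the SV40 T-antigen, so all 4 share this oncogene and each is the progeny of a tumor rather than a normal pituitary cell. They are aT1-1, labelled an immature gonadotrope line of embryonic stage, aT3-1, labelled an intermediate gonadotrope line of embryonic stage, LbT2, labelled a mature gonadotrope line, and TaT1, a thyrotrope line labelled mature. The oncogene, the strain and the tissue all separate NIH-3T3 from the other lines and cannot be told apart. Expression is given in RPKM, the reads of a gene divided by its length in kilobases and scaled to 1000000 reads of the library. Each line has 1 column, so the spread between replicates is unknown, the lines could not be tested against each other, and each difference below sets one column against another. For 5 of the genes (all but Runx1 and Cbfb) a gene length and whole reads could be recovered from the RPKM, which gives an exact Poisson interval at the 95% level for counting error only. Only for Cbfa2t3 was the length unique. For Runx2, Runx1t1 and Cbfa2t2, 2 lengths fitted, and for Runx3, 3 did, and the reads and intervals rest on the smallest. The lengths used for Runx3, Runx1t1 and Cbfa2t3 (3891, 6893 and 7964 bp) equal that of no annotated transcript.

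RUNX proteins bind DNA through the runt domain that gives them their name, and bind it weakly until they pair with CBFB, which does not touch DNA itself. The pair can raise or lower transcription, according to the coactivators or corepressors it recruits. RUNX1 is best known for the making of blood stem cells, RUNX2 for the bone-forming osteoblast, and RUNX3 for sensory neurons of the dorsal root ganglia and for cytotoxic T cells. The MTG proteins do not bind DNA by themselves and bridge transcription factors, among them the E-proteins, to NCOR complexes and histone deacetylases. In gonadotropes, RUNX factors have been described as a brake on the induction of Fshb, the gene of the FSH beta subunit, by activin.

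The 3 RUNX genes each have a distal promoter, and the family resemblance of these promoters can be read in their bases. The 30 bases that carry it are shown from RefSeq (GRCm38.p6), 5′ to 3′ on the strand of the gene, with the letters that RUNX proteins recognise (ACCACA or ACCGCA, which read TGTGGT or TGCGGT on the other strand) in capitals.
Runx1, chr16:92826025-92826054, minus strand: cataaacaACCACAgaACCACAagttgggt
Runx2, chr17:44814583-44814612, minus strand: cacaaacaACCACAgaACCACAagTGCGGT
Runx3, chr4:135120503-135120532, plus strand: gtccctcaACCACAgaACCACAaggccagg
The Runx1 and Runx2 stretches lie just inside the transcript, from base 21 to 50 and from base 16 to 45 after the start, whereas that of Runx3 lies upstream, from -142 to -113. All 3 share a run of 18 bases with 2 RUNX words in it. Of 32851 promoter windows of 300 bases, this run was in 4. The only one beside those of the RUNX genes belongs to Gm16225, a noncoding gene whose window covers the same DNA as that of Runx3 on the opposite strand. A single RUNX word in either orientation was found in 22.4% of all windows, so 1 word alone marks nothing. The Runx2 window held 4 words, a number of 3 or more being found in 0.289% of windows. The windows of Cbfb and Cbfa2t2 held none, 1 of the windows of Cbfa2t3 held a single ACCGCA, and the other windows of Runx1, Runx3 and Cbfa2t3 held none. Such matches describe the letters only. Reads were counted per gene, so the levels below do not say which promoter was used.

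Runx1 was present in the fibroblasts and was not seen in any of the pituitary lines. Its level was 6.74 RPKM in NIH-3T3 and 0 in aT1-1, aT3-1, LbT2 and TaT1. With a single non-zero column the gene length behind the value is not unique: 5 lengths from 3799 to 5839 bp give whole reads, which corresponds to 365 to 561 reads in NIH-3T3 (6.07 to 7.47 RPKM at the shortest length). At that length, 3 reads in aT1-1, aT3-1, LbT2 and TaT1 would be 0.0390, 0.0382, 0.0423 and 0.0419 RPKM. The NIH-3T3 level of Runx1 was thus 173-fold, 177-fold, 159-fold and 161-fold that of such a floor in aT1-1, aT3-1, LbT2 and TaT1. With the counting error of both columns, the lower bounds of the ratios were 140, 143, 129 and 130 in the same order. Of 6 markers of blood cells, in which Runx1 is best known, 2 were at 1 RPKM or more in NIH-3T3, Cd14 (23.5) and Cd68 (1.67). Csf1r was at 0.217 and Itgam at 0.0150 there, and Laptm5 was listed at 0. Cd14, Cd68 and Csf1r were higher in NIH-3T3 than in any pituitary line. Itgam and Laptm5 went the other way and were highest in LbT2, at 1.84 and 3.82 RPKM. Ptprc, the pan-leukocyte antigen, was listed at 0 in every line. The 6 markers summed to 25.4 RPKM in NIH-3T3, most of it Cd14, and to 1.62 to 6.36 RPKM in the pituitary lines. Their part in the level of Runx1 was not tested.

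Runx2 was likewise highest in the fibroblasts, but unlike Runx1 it was also read in the pituitary lines. Its levels were 4.14 RPKM in NIH-3T3 (348 reads, 3.72 to 4.60), 1.09 in LbT2 (120 reads, 0.904 to 1.30), 0.324 in TaT1 (36 reads, 0.227 to 0.448), 0.117 in aT1-1 (14 reads, 0.0641 to 0.197) and 0.00819 in aT3-1 (1 read). No neighbouring intervals in this order overlapped, the single read of aT3-1 having an upper bound of 0.0457 RPKM. NIH-3T3 was 3.80-fold above LbT2 (3.08 to 4.71), 12.8-fold above TaT1 and 35.3-fold above aT1-1. Among the pituitary lines the mature gonadotrope LbT2 stood out: it was 3.37-fold above TaT1 (2.30 to 5.03), 9.30-fold above aT1-1 (5.33 to 17.5) and 133-fold above aT3-1, where 1 read leaves an interval from 23.4 to 5298. The length recovered from the values, 5898 bp, is exactly that of an annotated Runx2 transcript. The exons of Runx2 overlap 519 bases of the antisense gene Runx2os1, and the library kit does not mark the strand, so reads from this stretch cannot be assigned to one of the pair. Of the 36-base words of Runx2, 8.59% recur in other annotated genes. How the counting treated such reads is not given in the sources used here. The counting intervals cover neither limit, which weighs most where reads are few.

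Runx3 showed the opposite arrangement and was the most abundant RUNX gene of each pituitary line. It was at 4.61 RPKM in TaT1 (338 reads, 4.13 to 5.13), 3.94 in aT1-1 (310 reads, 3.51 to 4.40), 3.36 in LbT2 (244 reads, 2.95 to 3.81), 2.47 in aT3-1 (199 reads, 2.14 to 2.84) and 1.24 in NIH-3T3 (69 reads, 0.969 to 1.58). Every pituitary line was therefore above the fibroblasts by more than counting error, by 3.70-fold in TaT1 (2.85 to 4.87), 3.16-fold in aT1-1, 2.70-fold in LbT2 and 1.99-fold in aT3-1 (1.50 to 2.65). With quantile normalization, however, NIH-3T3 (2.58) came above aT3-1 (1.56), so that the lowest place in the order depends on the scaling. Within the pituitary lines, aT1-1 and LbT2 did not differ beyond counting error (ratio 1.17, 0.987 to 1.39), whereas TaT1 was above LbT2 by 1.37-fold (1.16 to 1.62) and above aT3-1 by 1.86-fold (1.56 to 2.23). When the columns were scaled to Actb, LbT2 (4.67) moved ahead of aT1-1 (4.38) and TaT1 (4.24).

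Cbfb, the shared partner, was the most abundant of the 7 genes in every pituitary line. Its level was 51.3 RPKM in aT3-1, 37.6 in aT1-1, 36.4 in TaT1, 28.0 in LbT2 and 6.29 in NIH-3T3. No single gene length turned these values into whole reads, and intervals are therefore approximate, computed at the 2487 bp of the shortest coding transcript: about 2638, 1892, 1707, 1301 and 223 reads in the same order. The pituitary lines were 8.15-fold (aT3-1, 7.10 to 9.38), 5.97-fold (aT1-1), 5.79-fold (TaT1) and 4.45-fold (LbT2, 3.86 to 5.16) above NIH-3T3. In contrast, their own spread was narrow, 1.83-fold between aT3-1 and LbT2 (1.71 to 1.96), and aT1-1 and TaT1 did not differ beyond counting error (ratio 1.03, 0.966 to 1.10). LbT2 lay below TaT1 as deposited, but above it when scaled to Actb (39.0 against 33.5). None of the 36-base words of Cbfb transcripts recurs in another annotated gene.

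**Figure D1:**
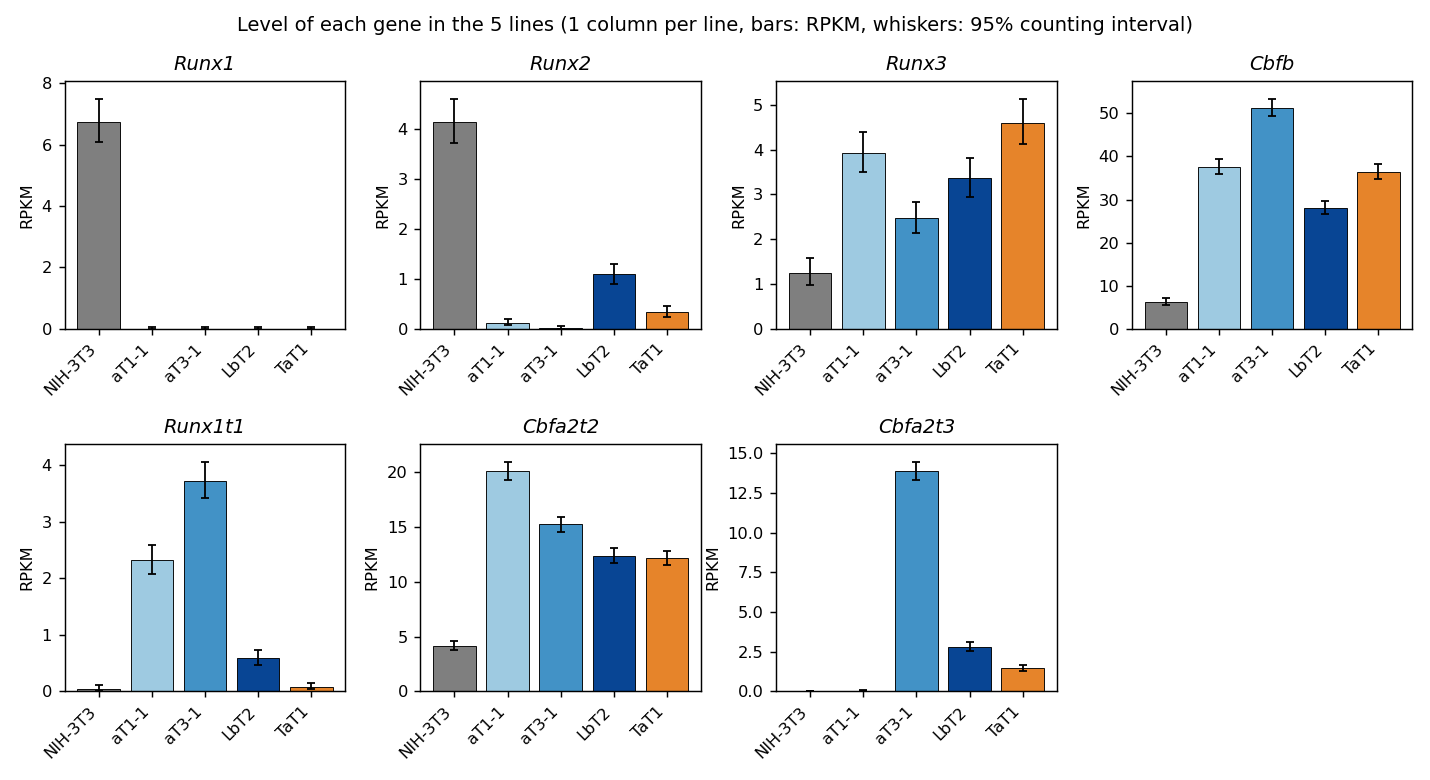
Level of the 7 genes in the 5 lines, in RPKM on a linear axis from 0 that differs between panels (bars, 1 column per line; whiskers, exact Poisson intervals at the 95% level for counting error, approximate for Cbfb and at the shortest possible length for Runx1). Runx1 stands in NIH-3T3 alone at 6.74 RPKM, Cbfa2t3 peaks in aT3-1 at 13.9 RPKM, and Cbfb exceeds the fibroblast level of 6.29 RPKM in all 4 pituitary lines.

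Of the MTG genes, Cbfa2t3 and Runx1t1 differed among the pituitary lines more than Cbfb or Runx3, with ranges of 3.83 and 2.13 on the log2(RPKM + 1) scale against 0.85 and 0.69, whereas Cbfa2t2 (0.69) did not. Cbfa2t3 (MTG16 in the human literature, a corepressor of blood progenitors) was at 13.9 RPKM in aT3-1 (2286 reads, 13.3 to 14.5), 2.83 in LbT2 (420 reads, 2.56 to 3.11), 1.45 in TaT1 (217 reads, 1.26 to 1.65), 0.0434 in aT1-1 (7 reads, 0.0175 to 0.0895) and 0 in NIH-3T3, where 3 reads would be 0.0264. The intervals of neighbouring lines did not overlap, apart from aT1-1 and NIH-3T3, both at or near 0. aT3-1 was 4.91-fold above LbT2 (4.42 to 5.46), 9.60-fold above TaT1 (8.35 to 11.1) and 320-fold above aT1-1 (155 to 796). The aT3-1 level was 525-fold that of 3 reads in NIH-3T3, and the lower bound of the ratio to NIH-3T3 was 426. LbT2 exceeded TaT1 by 1.95-fold (1.66 to 2.31). The spread of Cbfa2t3 over the 4 pituitary lines, 3.83 on the log2(RPKM + 1) scale, was larger than that of 95% of 13401 genes at 1 RPKM or more in some line. Its exons share 295 bases with Gm10612.

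Runx1t1, the MTG gene that human leukaemia fuses to RUNX1, was highest in aT3-1 and aT1-1, the lines labelled as gonadotropes of embryonic stage. It was at 3.72 RPKM in aT3-1 (531 reads, 3.41 to 4.05) and 2.32 in aT1-1 (324 reads, 2.08 to 2.59), against 0.583 in LbT2 (75 reads, 0.459 to 0.731), 0.0770 in TaT1 (10 reads) and 0.0407 in NIH-3T3 (4 reads). aT3-1 exceeded aT1-1 by 1.60-fold (1.39 to 1.85), LbT2 by 6.39-fold (5.01 to 8.25) and TaT1 by 48.4-fold (26.1 to 101). aT1-1 was 30.2-fold above TaT1, and LbT2 7.57-fold (3.90 to 16.4). The pair of lowest lines did not differ beyond counting error (ratio of TaT1 to NIH-3T3 1.89, 0.545 to 8.25), and they changed places with quantile normalization. aT1-1 thus had Runx1t1 with almost no Cbfa2t3, TaT1 had Cbfa2t3 with almost no Runx1t1, aT3-1 had both, and NIH-3T3 had at most a few reads of either.

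Cbfa2t2 (MTGR1) was the broadly present MTG gene. It was at 20.1 RPKM in aT1-1 (2475 reads, 19.3 to 20.9), 15.2 in aT3-1 (1917 reads, 14.6 to 15.9), 12.4 in LbT2 (1405 reads), 12.1 in TaT1 (1390 reads) and 4.14 in NIH-3T3 (359 reads, 3.73 to 4.60). All 4 pituitary lines lay above the fibroblasts, by 4.85-fold in aT1-1 (4.34 to 5.44) and 2.93-fold in TaT1 (2.60 to 3.30). LbT2 and TaT1 did not differ beyond counting error (ratio 1.02, 0.947 to 1.10), and their order reversed with median-of-ratios scaling and with quantile normalization. The recovered length of 6080 bp is exactly that of an annotated Cbfa2t2 transcript. Of the 36-base words of Cbfa2t2, 11.4% recur in other annotated genes, among them the pseudogene Cbfa2t2-ps1, and how the counting treated such reads is not given in the sources used here.

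Set side by side per length, the subunits were balanced differently in the fibroblasts and in the pituitary lines. The 3 RUNX genes summed to 12.1 RPKM in NIH-3T3, where Runx1 made up 55.6%, Runx2 34.1% and Runx3 10.3%. In the pituitary lines the sum was 4.93 in TaT1, 4.45 in LbT2, 4.05 in aT1-1 and 2.48 in aT3-1, and Runx3 made up 93.4%, 75.5%, 97.1% and 99.7% of it, with Runx2 at 24.5% in LbT2. Scaled to Actb, the sum in LbT2 (6.19) came level with that in NIH-3T3 (6.17). Cbfb per summed RUNX level was 0.519 in NIH-3T3, 6.30 in LbT2, 7.38 in TaT1, 9.27 in aT1-1 and 20.7 in aT3-1. A common factor per column leaves this ratio as it is, but quantile normalization, which treats levels unequally, gave 39.5 in aT3-1 and 0.479 to 9.57 in the other lines. It compares transcripts and not proteins. aT3-1 held both the least RUNX and the most Cbfb.

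The 3 MTG genes summed to 4.19 RPKM in NIH-3T3, 13.7 in TaT1, 15.8 in LbT2, 22.5 in aT1-1 and 32.8 in aT3-1. Cbfa2t2 made up 99.0% of this sum in NIH-3T3, 88.8% in TaT1, 78.4% in LbT2 and 89.5% in aT1-1. Only in aT3-1 did it fall under a majority, at 46.4%, beside 42.3% for Cbfa2t3 and 11.3% for Runx1t1. Cbfa2t3 contributed 17.9% in LbT2 and 10.6% in TaT1, and Runx1t1 10.3% in aT1-1.

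**Figure D2:**
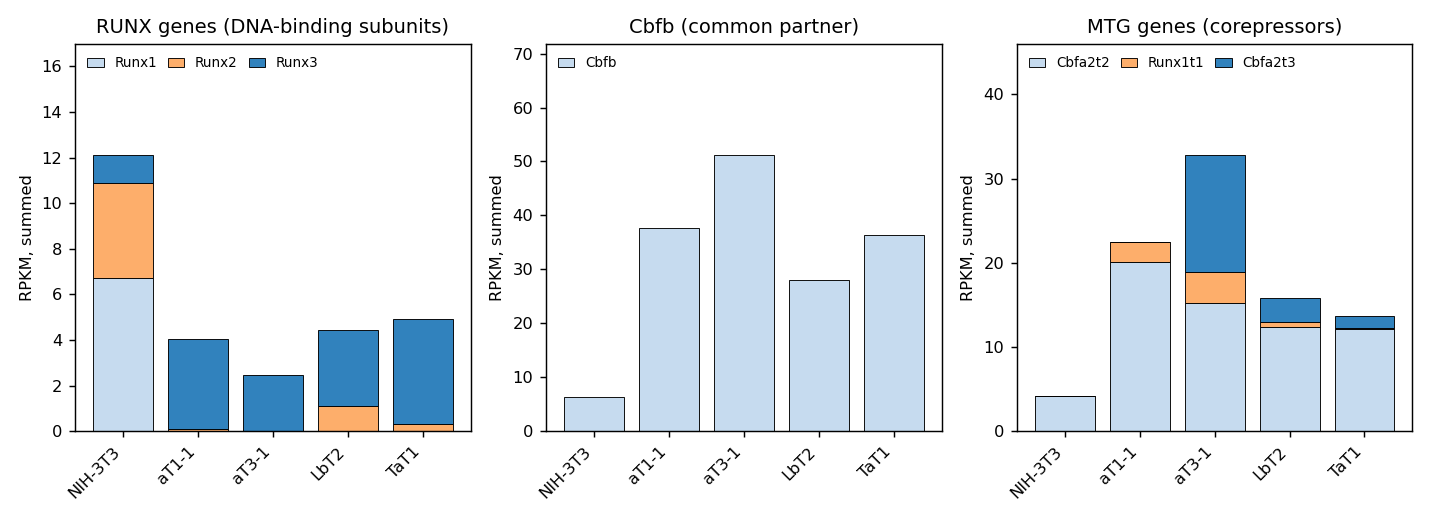
Summed level of the RUNX genes (left), of Cbfb (middle) and of the MTG genes (right) in the 5 lines, in RPKM from 0, with each colour 1 gene. The RUNX sum is 12.1 RPKM in NIH-3T3 and 2.48 to 4.93 RPKM in the pituitary lines, where Runx3 fills most of each bar, and the MTG sum is highest in aT3-1 at 32.8 RPKM, with Cbfa2t3 as its second large part.

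Differences between lines were then taken as log2(RPKM + 1), which understates the change of low genes, and a gene that reached 1 RPKM in either line of a pair was counted when the difference was 1 or more (2-fold). Against NIH-3T3, aT1-1 had 4 of 6 genes higher (Runx3, Cbfb, Runx1t1, Cbfa2t2) and 2 lower (Runx1, Runx2), where 30.1% of all genes were higher and 19.1% lower. In aT3-1, 4 of 7 were higher (Cbfb and the 3 MTG genes) and 2 lower, beside 37.1% and 21.5% of all genes. In LbT2, 3 of 6 were higher (Cbfb, Cbfa2t2, Cbfa2t3) and 2 lower, beside 32.5% and 17.2%. In TaT1, 4 of 6 were higher (Runx3, Cbfb, Cbfa2t2, Cbfa2t3) and 2 lower, beside 29.4% and 18%. The 2 lower genes were Runx1 and Runx2 each time. These 4 comparisons share the NIH-3T3 column. In all 4 pituitary lines at once, Cbfb and Cbfa2t2 were higher (2 of 7 genes, 10.5% of 13401 genes being so) and Runx1 and Runx2 lower (2 of 7, against 8.63%).

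Among the pituitary lines fewer of the 7 genes passed the 2-fold limit, and as deposited most of those that did were MTG genes. aT3-1 exceeded aT1-1 in 1 of 5 genes (Cbfa2t3) with none lower, beside 19.3% of all genes higher and 12.1% lower. LbT2 against aT3-1 had 1 of 6 higher (Runx2) and 2 lower (Runx1t1, Cbfa2t3), beside 20.6% and 21.3%. LbT2 against aT1-1 had 1 of 6 higher (Cbfa2t3) and 1 lower (Runx1t1), beside 20.8% and 16.2%. TaT1 against aT1-1 likewise had Cbfa2t3 higher and Runx1t1 lower, 1 of 5 each way, beside 9.14% and 9.21%, and TaT1 against aT3-1 had none higher and 2 of 5 lower (Runx1t1, Cbfa2t3), beside 15% and 21.7%. Between the 2 lines labelled mature, TaT1 and LbT2, none of 5 genes passed the limit in either direction, beside 17.1% and 20.4% of all genes. As a plain ratio, however, Runx2 in LbT2 was 3.37-fold above TaT1 (2.30 to 5.03). Runx1t1, under 1 RPKM in both lines and so not counted, was 7.57-fold higher in LbT2 (3.90 to 16.4). Runx2 in LbT2 against aT1-1 also went uncounted, at a difference of 0.90 and a ratio of 9.30. The difference of Runx2 between LbT2 and aT3-1, just past the limit, was 0.99 with median-of-ratios scaling and 0.95 with quantile normalization, and that of Runx1t1 between LbT2 and aT1-1 was -0.99 when scaled to Actb. Other pairs passed it only with another scaling: Cbfb between LbT2 and aT3-1 (-1.20) and Runx3 between TaT1 and aT3-1 (1.18) with quantile normalization, and Cbfb between TaT1 and aT3-1 (-1.06), Runx2 between LbT2 and aT1-1 (1.15) and Cbfa2t3 between TaT1 and LbT2 (-1.08) when scaled to Actb. With so few genes, these shares are counts and not a property of the group.

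**Figure D3:**
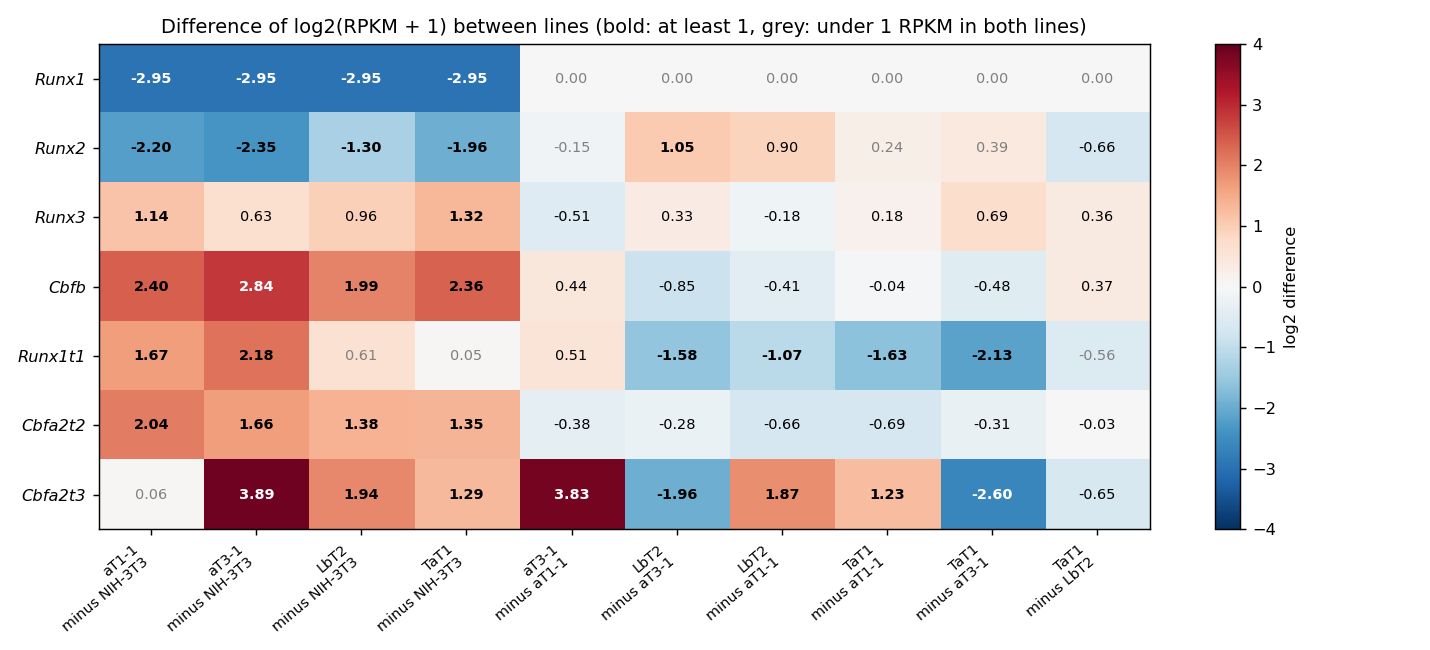
Difference of log2(RPKM + 1) for the 7 genes (rows) in the 10 pairs of lines (columns, first line minus second), with red for higher and blue for lower in the first line. Bold values reach 1, and grey values belong to genes under 1 RPKM in both lines. Runx1 and Runx2 are blue in all 4 comparisons with NIH-3T3, at -1.30 to -2.95, and Cbfb and Cbfa2t2 are red, at 1.35 to 2.84.

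The comparisons with NIH-3T3 depend on how the columns are scaled, since the median of all genes already lay 0.28 to 0.38 above 0 on the log2 scale. Relative to that median, the difference from NIH-3T3 was 1.62 to 2.46 for Cbfb, 1.01 to 1.75 for Cbfa2t2, 0.25 to 1.04 for Runx3, -3.24 to -3.33 for Runx1 and -1.67 to -2.73 for Runx2. Of all genes past the limit in these 4 comparisons, 61.2% to 65.4% were higher in the pituitary line, but 51.1% to 53.3% with median-of-ratios scaling, 48.3% to 49.8% with quantile normalization and 83.3% to 90.8% when scaled to Actb, where the median of all genes lay at 0.98 to 1.51. Scaling to Actb also moved this share from 61.4% to 76.5% for aT3-1 against aT1-1, from 56.2% to 69.3% for LbT2 against aT1-1, from 49.8% to 32.5% for TaT1 against aT1-1, from 40.9% to 18.1% for TaT1 against aT3-1 and from 45.7% to 22.4% for TaT1 against LbT2. The calls of Runx1, Cbfb, Runx1t1 and Cbfa2t3 against NIH-3T3 held in all of these scalings. The differences of Cbfa2t2 in LbT2 (0.79) and TaT1 (0.81) and of Runx3 in TaT1 (0.70) were under 1 with quantile normalization. The call of Runx3 in aT1-1 did not hold with median-of-ratios scaling (0.96) or quantile normalization (0.47), and that of Runx2 in LbT2 did not hold when scaled to Actb (-0.30). That scaling instead took Runx3 past the limit in aT3-1 (1.43) and LbT2 (1.80).

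In rank, Cbfb stood above 93.4% of all genes in aT3-1, 84.5% to 89.2% in the other pituitary lines and 69.8% in NIH-3T3. Runx1 stood above 70.5% of genes in NIH-3T3. Cbfa2t2 lay between 65.9% and 81.0% in every line, and Runx3 between 52.3% and 62.7%.

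The genes most like each of the 7 across the 5 lines were sought by the root mean square difference of log2(RPKM + 1), after centring each gene, among 12269 genes. With 5 points a close match to some gene is easily had, and the names are given as a description. Because 1 RPKM is added, a low gene can match a high one without sharing its fold differences. Runx1t1, for instance, was at 0.0407 RPKM in NIH-3T3 and 3.72 in aT3-1, and its closest match Cltc at 27.0 and 119. For Runx1 these were Prelp (0.0083), Arhgap9 and Kng2, all at 6.31 to 7.10 RPKM in NIH-3T3 and at most 0.0553 in the other lines. For Runx2 they were Polr1c (0.057), Maff and Dlg5, which are present in every line and highest in NIH-3T3. For Runx3 they were Tgfbrap1 (0.060), Lrdd and Tmcc1. Cbfb was followed by Tcp11l1 (0.11) and Stx12, and Cbfa2t2 by Gosr1 (0.086), Csnk2a1 and Mapre1. Runx1t1 was followed by Cltc (0.081), the clathrin heavy chain gene, by Gigyf2 and by Vps13b. Cbfa2t3 had the least close matches, Ddx26b (0.24), Fam174b (0.24) and Tgfbr1 (0.36), the last at 14.7 RPKM in aT3-1 and at 0.867 to 4.68 in the other lines.

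Partners and targets of the RUNX and MTG proteins were counted in 5 lists with the same limit. The shares of all genes to read them against are, for higher and lower in turn, 30.1% and 19.1% in aT1-1, 37.1% and 21.5% in aT3-1, 32.5% and 17.2% in LbT2 and 29.4% and 18% in TaT1 against NIH-3T3, with medians of 0.29, 0.38, 0.37 and 0.28, and 9.14% to 20.8% and 9.21% to 21.7% in the 6 pairs of pituitary lines. The 5 lists together had 27 of 73 genes higher and 15 lower in aT1-1 (37.0% and 20.5%), 25 of 72 and 20 in aT3-1 (34.7% and 27.8%), 15 of 72 and 13 in LbT2 (20.8% and 18.1%) and 23 of 77 and 17 in TaT1 (29.9% and 22.1%) against NIH-3T3. Like the shares of all genes, these moved with the scaling. In LbT2 they were 12 and 18 with median-of-ratios scaling (16.4% and 24.7%, beside 25.7% and 24.0% of all genes). With quantile normalization they were 9 and 14 (12.3% and 19.2%, beside 21.6% and 23.1%). Scaled to Actb they were 50 and 9 (68.5% and 12.3%, beside 68.7% and 6.94%). In aT3-1 they were 23 and 28 with median-of-ratios scaling (31.5% and 38.4%, beside 32.2% and 28.2%).

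Of 21 repressive partners of RUNX proteins, all were at 1 RPKM or more in NIH-3T3, aT3-1 and LbT2 and 20 in aT1-1 and TaT1. Tle6 was the gene below that level in both. Of all genes, 44.8% to 53.4% reached it in a line. The TLE proteins (Groucho) are described as a family that binds the end of RUNX proteins and recruits deacetylases. Whether TLE6 itself does so was not tested. Tle6 was at 46.8 RPKM in aT3-1, 36.9 in LbT2 and 21.0 in NIH-3T3, against 0.539 in aT1-1 and 0.211 in TaT1. Tle4 was at 15.6 in aT1-1, 8.49 in TaT1, 5.59 in LbT2, 2.93 in aT3-1 and 1.11 in NIH-3T3. Tle2 was highest in aT3-1 (17.2, against 1.78 to 4.91 elsewhere). Hdac6, a mostly cytoplasmic deacetylase, reached 182 in aT1-1 and 76.8 in aT3-1 and lay at 25.2 to 30.7 in the other lines. Against NIH-3T3, 4 of 21 were higher and 2 lower in aT1-1 (19.0% and 9.5%), 7 and 3 in aT3-1 (33.3% and 14.3%), 5 and 1 in LbT2 (23.8% and 4.8%) and 3 and 3 in TaT1 (14.3% and 14.3%). As deposited, each share was below that of all genes. The medians were -0.14, 0.55, 0.28 and 0.25. This place below all genes did not hold with every scaling. Scaled to Actb, 18 were higher and 0 lower in LbT2 (85.7% higher, all genes 68.7%), and 16 were higher in aT3-1 (76.2%, all genes 64.8%). With quantile normalization 7 were higher in aT3-1 (33.3%, all genes 26.1%) and 5 lower in aT1-1 (23.8%, all genes 22.4%). In the 6 pairs of pituitary lines, 0 to 7 of 20 or 21 were higher and 1 to 7 lower.

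Of 27 coactivators and cooperating factors, 16 to 18 were at 1 RPKM or more in each line, beside 44.8% to 53.4% of all genes. Against NIH-3T3, 12 of 20 were higher and 5 lower in aT1-1 (60.0% and 25.0%), 9 of 19 and 7 in aT3-1 (47.4% and 36.8%), 10 of 21 and 6 in TaT1 (47.6% and 28.6%), and 5 of 20 and 7 in LbT2 (25.0% and 35%). The medians were 1.23, 0.95, 0.61 and 0.01 in the same order. With quantile normalization aT3-1 had 5 higher and 9 lower, and scaled to Actb LbT2 had 12 higher and 6 lower, so the direction of the balance in both lines depends on the scaling. In the pituitary pairs, 2 to 10 of 18 to 20 were higher and 2 to 8 lower. The acetyltransferase genes Ep300 and Crebbp were among the higher ones in aT1-1, aT3-1 and TaT1, and not in LbT2. Smad1, which carries BMP signals, was at 48.2 RPKM in aT3-1, 28.7 in TaT1, 22.2 in aT1-1 and 8.16 in NIH-3T3 but at 0.0352 in LbT2. Cebpa and Gata2 were highest in LbT2, at 37.3 and 78.8 RPKM, and Gata2, a factor of gonadotropes and thyrotropes, was also at 51.7 in TaT1 and 25.9 in aT1-1. Wwtr1, the gene of the Hippo coactivator TAZ, was at 29.7 in NIH-3T3, 1.04 in aT1-1, 0.200 in TaT1 and 0.0707 in aT3-1 and was listed at 0 in LbT2. Fli1 and Sfpi1 (PU.1), which work with RUNX1 in blood cells, were listed at 0 in every line.

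Of 23 partners of the MTG complex, 16 to 19 were at 1 RPKM or more in each line, beside 44.8% to 53.4% of all genes. The E-protein genes Tcf4 and Tcf12 and the deacetylase gene Hdac2 were highest in aT3-1. Tcf4 was at 44.0 RPKM there, 41.6 in TaT1, 12.5 in aT1-1, 6.98 in LbT2 and 1.36 in NIH-3T3. Tcf12 was at 61.6 in aT3-1 against 7.10 to 34.1 elsewhere, and Hdac2 at 83.6 against 14.2 to 65.8. The remaining E-protein gene of the list, Tcf3, went the other way and was lowest in aT3-1 (42.5, against 51.3 to 97.0 elsewhere). Lmo2, an adaptor of blood progenitor complexes, was at 6.20 in TaT1, 1.17 in aT3-1, 0.598 in aT1-1 and 0.480 in LbT2 and was listed at 0 in NIH-3T3. Against NIH-3T3, 6 of 17 were higher and 1 lower in aT1-1 (35.3% and 5.9%), 5 of 17 and 3 in aT3-1 (29.4% and 17.6%), 4 of 17 and 0 in LbT2 (23.5% and 0%), and 7 of 19 and 0 in TaT1 (36.8% and 0%). As deposited, the shares of higher genes in aT3-1 and LbT2 were below those of all genes. Scaled to Actb they were above, at 70.6% in aT3-1 (all genes 64.8%) and 76.5% in LbT2 (all genes 68.7%). The medians were 0.44, 0.11, 0.57 and 0.52. With median-of-ratios scaling the counts were 5 and 5 in aT3-1 (29.4% each way, beside 32.2% and 28.2% of all genes). In LbT2 they were 2 and 2 (11.8% each way, beside 25.7% and 24.0%). In the pituitary pairs, 0 to 6 of 17 to 19 were higher and 0 to 5 lower.

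The 12 genes of RUNX turnover and localisation were at 1 RPKM or more in NIH-3T3, aT3-1 and LbT2, and 11 of them in aT1-1 and TaT1. Among all genes the share at that level was 44.8% to 53.4%. Against NIH-3T3, 3 of 12 were higher and 4 lower in aT1-1 (25.0% and 33.3%), 1 and 3 in aT3-1 (8.3% and 25.0%), 0 and 2 in LbT2 (0% and 16.7%), and 0 and 4 in TaT1 (0% and 33.3%), with Cdc20 and Flna lower in each. The medians were -0.27, -0.89, 0.26 and -0.50. The balance turned when scaled to Actb, with 6 higher and 1 lower in aT1-1, 5 and 1 in aT3-1, 7 and 1 in LbT2 and 3 and 2 in TaT1. The share of all genes moved the same way. In aT1-1, aT3-1, LbT2 and TaT1, 54.5%, 41.7%, 58.3% and 27.3% of the list were then higher. Of all genes, 57.2%, 64.8%, 68.7% and 49.2% were. In the pituitary pairs, 1 to 4 of 11 or 12 were higher and 1 to 3 lower. Cdc20, which directs the anaphase-promoting complex, was at 408 RPKM in NIH-3T3, 146 in aT1-1, 118 in TaT1, 106 in LbT2 and 43.0 in aT3-1. Flna, the actin-linker filamin A, was at 381 in NIH-3T3 and 62.8 to 111 elsewhere. Smurf1, a ubiquitin ligase of RUNX2, was at 36.8 in NIH-3T3, 19.2 in LbT2 and 8.75 to 10.4 elsewhere, and Fbxw7, another ligase component, was highest in aT3-1 (17.7, against 1.55 to 7.54).

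Of 26 genes known as RUNX targets in bone, blood, neurons and pituitary, 4 to 8 were at 1 RPKM or more in any one line. Of all genes, 44.8% to 53.4% were at that level. Against NIH-3T3, 3 of 8 were higher and 3 lower in aT1-1 (37.5% each way), 4 of 8 and 4 in aT3-1 (50.0%), 3 of 7 and 3 in LbT2 (42.9%), and 4 of 9 and 4 in TaT1 (44.4%). The medians were 0.29, 0.22, 0.22 and 0.65. In the pituitary pairs, 2 to 4 were higher and 1 to 4 lower. The bone genes Ibsp and Sp7 were listed at 0 throughout, also in NIH-3T3 with its Runx2. Spp1 (osteopontin) was at 553 RPKM in NIH-3T3, 104 in aT3-1, 88.3 in LbT2, 3.88 in TaT1 and 0.876 in aT1-1. Col1a1, which is also a fibroblast marker, was at 422 in NIH-3T3 and at most 0.0452 elsewhere. Cdkn2a, a cell cycle inhibitor gene, was at 131 to 265 in the pituitary lines and 0.927 in NIH-3T3. Calca, the gene of calcitonin and its related peptide, was at 30.5 in TaT1 and 5.11 in aT1-1, against 0.422 in aT3-1, 0.0360 in LbT2 and 0 in NIH-3T3. Fshb was listed at 0 in all 5 columns, so that its level could not be set beside that of the RUNX genes in any line.

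**Figure D4:**
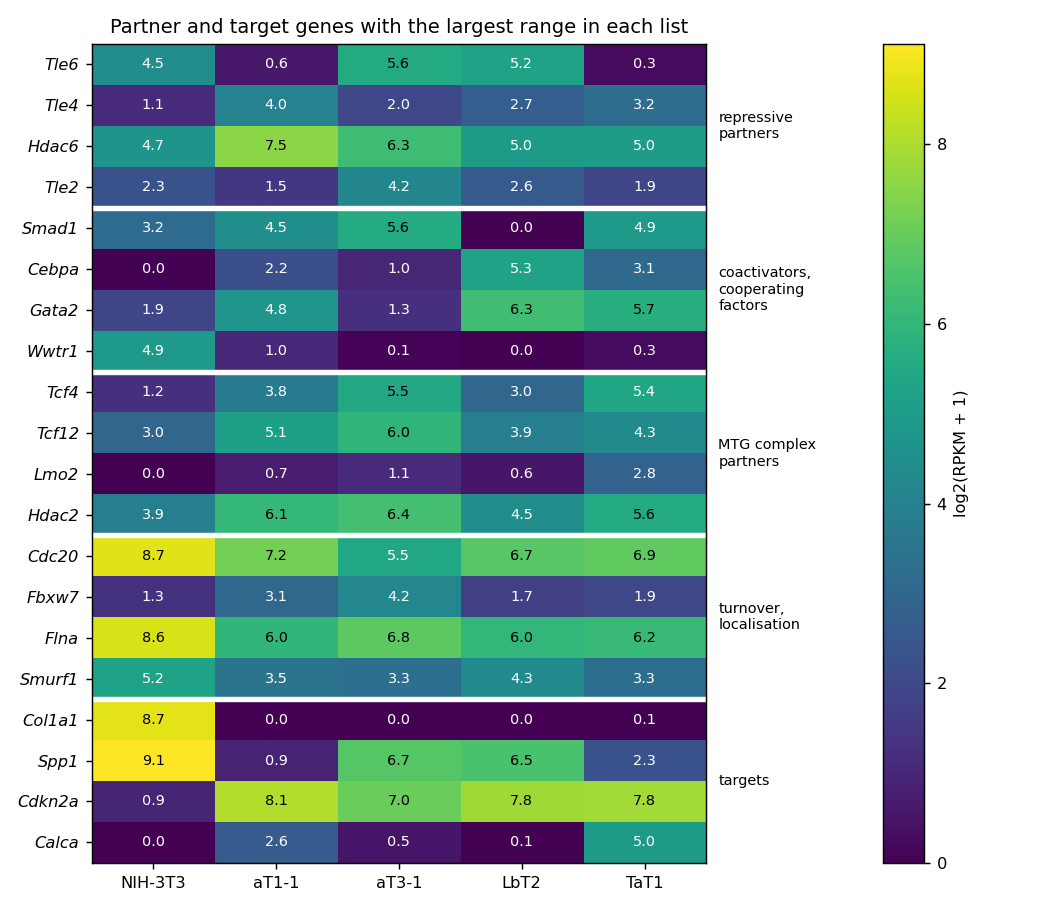
Level of the genes with the largest range over the 5 lines in each of 5 lists of RUNX and MTG partners and targets (up to 4 genes a list, rows), as log2(RPKM + 1) in each line (columns, 1 column per line). Tcf12 and Hdac2 are brightest in aT3-1 (61.6 and 83.6 RPKM), Wwtr1 and Col1a1 are bright in NIH-3T3 alone (29.7 and 422 RPKM), and Smad1 is dark in LbT2 (0.0352 RPKM).

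Read totals recovered from the steps of the low values were 14246219 in NIH-3T3 and 18661308 to 20687488 in the other lines, and 44.8% to 53.4% of genes were at 1 RPKM or more. Of the 7 genes, 4 or 5 reached that level in each line. The labels could be set against markers: all 8 fibroblast markers were at 1 RPKM or more in NIH-3T3 and 1 to 3 in the others, Cga was at 604 to 12968 RPKM in the 4 pituitary lines and 0.102 in NIH-3T3, Gnrhr was above 0 only in aT3-1 (206) and LbT2 (72.3), Lhb reached 23.3 only in LbT2, and Tshb 58.5 only in TaT1. In aT1-1 the gonadotrope marker Gnrhr was at 0, and Nr5a1 was at 0.687, against 162 in aT3-1 and 265 in LbT2. Fshb was at 0 in every line. The thyrotrope marker Pou1f1 was at 3.21 in aT1-1 and 88.0 in TaT1, against 0 in aT3-1 and 0.0612 in LbT2. The label of aT1-1 as a gonadotrope line is thus not borne out by these markers. The paper describes aT1-1 as a progenitor of gonadotropes, thyrotropes or both. Endothelial markers were uneven, with Kdr at 65.0 RPKM in aT1-1 and Cdh5 at 50.6 in LbT2, and their part in the levels of the RUNX and MTG genes was not tested.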

How the data were processed

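RNA of 5 mouse lines was measured by the authors with TruSeq v2 libraries (not stranded), 36 bp single-end reads and CASAVA, whose version is not given. The deposited values are RPKM, computed by the authors from reads per gene model. The methods describe 2 libraries per line, and how these became 1 column is not given in the sources used here, nor are the genome build and annotation. Groups follow the labels.

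Of 21476 entries, 25 with a date for a name (0.0991% to 0.242% of summed RPKM) were left out, and for 9 repeated symbols the entry with the higher mean was kept. Values under 1 RPKM were whole multiples of a step that differed between columns (largest distance 0.0072 of a step), which gave read totals. The gene length was the smallest from 150 to 15000 bp at which all values above 0 in 2 or more columns gave whole reads, unless over 1.05 times the summed exons (GENCODE M21). Of 16086 genes, 14177 (88.1%) had a length. Intervals are exact Poisson for levels and exact binomial for ratios. A floor is 3 reads in a line. Ratios of Runx1 use its shortest length, those of Cbfb the shortest coding transcript.

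Differences are of log2(RPKM + 1). The 7 genes, the 5 lists of partners and targets, the markers and the alternatives were chosen with earlier results of these data known. Named from each list are up to 4 genes with the largest range and 1 RPKM or more in some line, and the 3 most like genes for each of the 7, of which 1 is not reported here. Ep300, Crebbp, Fli1, Sfpi1, Tcf3, Ibsp, Sp7 and Fshb, where named, and the markers were named beside that rule. Kat6a, Kat6b, Kmt2a and Spi1 stood in the table as Myst3, Myst4, Mll1 and Sfpi1. Promoter windows are those of RefSeq (GRCm38.p6), which held windows of 6 of the 7 genes (not Runx1t1). Alternatives were pseudocounts of 0.1 and 5 RPKM, no minimum or one of 5 RPKM, a 4-fold limit, median-of-ratios scaling, scaling to Actb and quantile normalization. Steps were tested on simulated data. Python 3.11.15, NumPy 2.4.6, pandas 2.3.3, SciPy 1.17.1 and matplotlib 3.10.9 were used.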

Additional observations from a re-analysis of the deposited data

How the results depend on the processing

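With 1 column per line no replicate could be left out. No paired analysis was possible because each line has 1 column. No difference of the 7 genes that passed the 2-fold limit changed direction under another pseudocount, minimum or scaling. The number of the 7 genes past the limit was 6 for aT1-1, aT3-1 and TaT1 against NIH-3T3, 5 for LbT2 against NIH-3T3, 3 for LbT2 against aT3-1, 2 for LbT2 against aT1-1, TaT1 against aT1-1 and TaT1 against aT3-1, 1 for aT3-1 against aT1-1 and 0 for TaT1 against LbT2. With a pseudocount of 5 RPKM it was 3 for aT1-1, 2 for LbT2 and 2 for TaT1 against NIH-3T3, 1 for LbT2 and 1 for TaT1 against aT3-1, and 0 for LbT2 and 0 for TaT1 against aT1-1. With a minimum of 5 RPKM it was 3 for each of aT1-1, LbT2 and TaT1 against NIH-3T3, 1 for LbT2 and 1 for TaT1 against aT3-1, and 0 for LbT2 and 0 for TaT1 against aT1-1. At a 4-fold limit it was 1 for LbT2 and 2 for TaT1 against NIH-3T3 and 0 for LbT2 against aT3-1, LbT2 against aT1-1 and TaT1 against aT1-1. For TaT1 against LbT2 it was 1 with a pseudocount of 0.1 RPKM and 1 when scaled to Actb. These settings differ by construction in how far low genes can move. The share of all genes was not counted with another pseudocount, another minimum or the 4-fold limit. The numbers at those settings therefore cannot be read as particular to the 7 genes. Median-of-ratios scaling, quantile normalization and no minimum kept every such number within 1.5 times.

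For the 5 lists together, the 2-fold limit counted 42 of 73 genes (57.5%, all genes 49.2%) for aT1-1, 45 of 72 (62.5%, 58.6%) for aT3-1, 28 of 72 (38.9%, 49.7%) for LbT2 and 40 of 77 (51.9%, 47.4%) for TaT1 against NIH-3T3, 26 of 73 (35.6%, 31.4%) for aT3-1 against aT1-1, 33 of 71 (46.5%, 41.9%) for LbT2 against aT3-1, 37 of 71 (52.1%, 37.0%) for LbT2 against aT1-1, 15 of 73 (20.5%, 18.4%) for TaT1 against aT1-1, 36 of 76 (47.4%, 36.7%) for TaT1 against aT3-1 and 36 of 75 (48.0%, 37.5%) for TaT1 against LbT2. A 4-fold limit left 19, 20, 14 and 21 genes for aT1-1, aT3-1, LbT2 and TaT1 against NIH-3T3, 9 for aT3-1 against aT1-1, 9 for LbT2 against aT3-1, 10 for LbT2 against aT1-1, 7 for TaT1 against aT1-1, 12 for TaT1 against aT3-1 and 13 for TaT1 against LbT2. A pseudocount of 5 RPKM gave 18 for LbT2 against NIH-3T3, 16 for aT3-1 against aT1-1, 24 for LbT2 against aT1-1, 8 for TaT1 against aT1-1, 21 for TaT1 against aT3-1 and 23 for TaT1 against LbT2. The share of all genes was not counted at the 4-fold limit or with this pseudocount. Whether the lists fell more than other genes is therefore not known. Scaled to Actb, LbT2 against NIH-3T3 had 59 of 73 (80.8%, all genes 75.6%), 50 higher and 9 lower, beside 15 and 13 as deposited. Counting limits Runx2 in aT3-1 (1 read), Runx1t1 in NIH-3T3 (4 reads) and Cbfa2t3 in aT1-1 (7 reads).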
